A study of Mus musculus with 8 samples.

Results

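The genes that encode intermediate filament proteins were followed in mouse embryonic stem (ES) cells exposed to cisplatin. Members were all genes whose symbol is that of a keratin (Krt followed by a number) or one of 15 further filament genes: Synm, Vim, Des, Nes, Gfap, Prph, Ina, Nefl, Nefm, Nefh, Lmna, Lmnb1, Lmnb2, Bfsp1 and Bfsp2. The platform annotation gave 55 such genes among the 17098 genes tested, 41 keratins and 14 others, read by 77 probe sets in all; Lmnb1 was not analysed here. Each gene was represented by the probe set whose mean on the 8 arrays was highest, so the level chose the probe set and is given as a description. Synm was singled out with its large change on these arrays already known, and its values are therefore described without a test. The remaining members entered by name, with results of these arrays known as well.

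The cells were HPRT deficient ES cells of strain C57BL/6 at passages 19 to 22. They were exposed for 8 h to 2.5 µM cisplatin, a platinum drug that crosslinks DNA, or to the solvent DMSO alone as control. Before the experiment both groups were grown on plates coated with feeder cells and then on gelatin. Total RNA of 4 treated and 4 control samples, numbered 3 to 6 in each group, was hybridised to 1 array per sample. Whether the replicates came from separate cultures, and whether the line is a single clone, is not stated in the labels. The p-values therefore reflect the spread among these 8 samples alone, part or all of which may be technical.

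Intermediate filaments are the rope-like part of the cytoskeleton, and their genes are switched on by cell type. Keratins form filaments only as pairs of a type I and a type II chain in epithelia, with Krt8 and Krt18 the pair of simple epithelia and of the first epithelium of the embryo. Desmin builds the filaments of muscle, vimentin those of mesenchyme and of many cultured cells, neurofilament chains those of neurons, and the lamins line the inside of the nuclear envelope. Synemin is a large filament protein that does not assemble alone but joins desmin or vimentin filaments and ties them to the dystrophin complex and to focal contacts.

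All levels are log2 expression values normalized by RMA, and changes are log2 differences of cisplatin minus control ± SE from limma. Adjusted p-values are limma's with Benjamini-Hochberg adjustment over the 17098 genes, at a threshold of 0.05. Background was set at 3.10, the mean of the array's nonspecific probes whose 25 bases include 24 of G or C. The value depends on this choice: probes with 13 such bases read 2.26, those with 22 read 2.86 and those with 25 read 4.89. The arrays correlated at 0.997 to 0.998 within groups and at 0.992 to 0.995 between them over all genes. The 3′ minus 5′ difference of the Actb control probe sets, a measure of RNA integrity, was 0.52 to 0.53 with cisplatin and 0.50 to 0.57 in the controls. The ES cell markers were bright on every array: the mean over 7 of them lay between 11.22 and 11.28 with cisplatin and between 11.44 and 11.47 in the controls. All 7 changes were negative, and 4 of the 7 were called lower with cisplatin (57.1%, against 19.3% of all genes called). The largest was that of Esrrb, at -0.55 ± 0.07. In the controls Pou5f1 was at 12.23 ± 0.06 (SD, n = 4), Nanog at 11.28 ± 0.08 and Sox2 at 11.35 ± 0.04. Nanog was lower with cisplatin by 0.25 ± 0.06 (adjusted p = 0.0210), a call lost when any of 4 single arrays was left out. Pou5f1 and Sox2 did not pass (-0.04 ± 0.06 and -0.12 ± 0.05).

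Many filament genes gave little signal in these cells, and 29 of the 55 lay below 3.10 in both groups. That count was 20 with the background of 2.86 and 41 with that of 4.89. It was 7 with probes of 21 G or C bases (2.69), at most 2 with those of 20 or fewer, and 0 with the background of 2.26. Which members count as below background thus depends on the probes chosen. Counting Synm, which was chosen for its change, 9 members were past the threshold as higher with cisplatin and none as lower. They were Synm, the muscle gene Des, the neurofilament gene Nefh, the keratins Krt7 and Krt20 of simple epithelia, and Krt4, Krt12, Krt15 and Krt16 of stratified epithelia. Across all genes 19.3% passed the test, 11.6% as higher and 7.69% as lower, and the members stood at 16.4%, or 8 of 54 without Synm. This share is near the background, so the count is no result about the family. The median change was 0.02 over the members and 0.01 over all genes. In 8 members the 4 cisplatin values all lay above the 4 control values, and in 1, Bfsp2, all below; over all genes such separation occurred in 14.2% and 10.1%. Centring each array on its median, which differed by 0.13 between the groups and lowers every change by that amount, left 5 members higher and put 7 lower. The 5 were Synm, Des, Nefh, Krt12 and Krt16, and the 7 were Vim, Lmnb2, Krt81, Krt35, Krt222, Gfap and Bfsp2. Of the 7, Krt35, Krt222, Gfap and Bfsp2 lay below 3.10 in both groups. This shift of 0.13 is larger than the median change of 0.01 over all genes. Quantile normalization of the arrays again kept the same 9 members higher and put none lower.

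**Figure D1:**
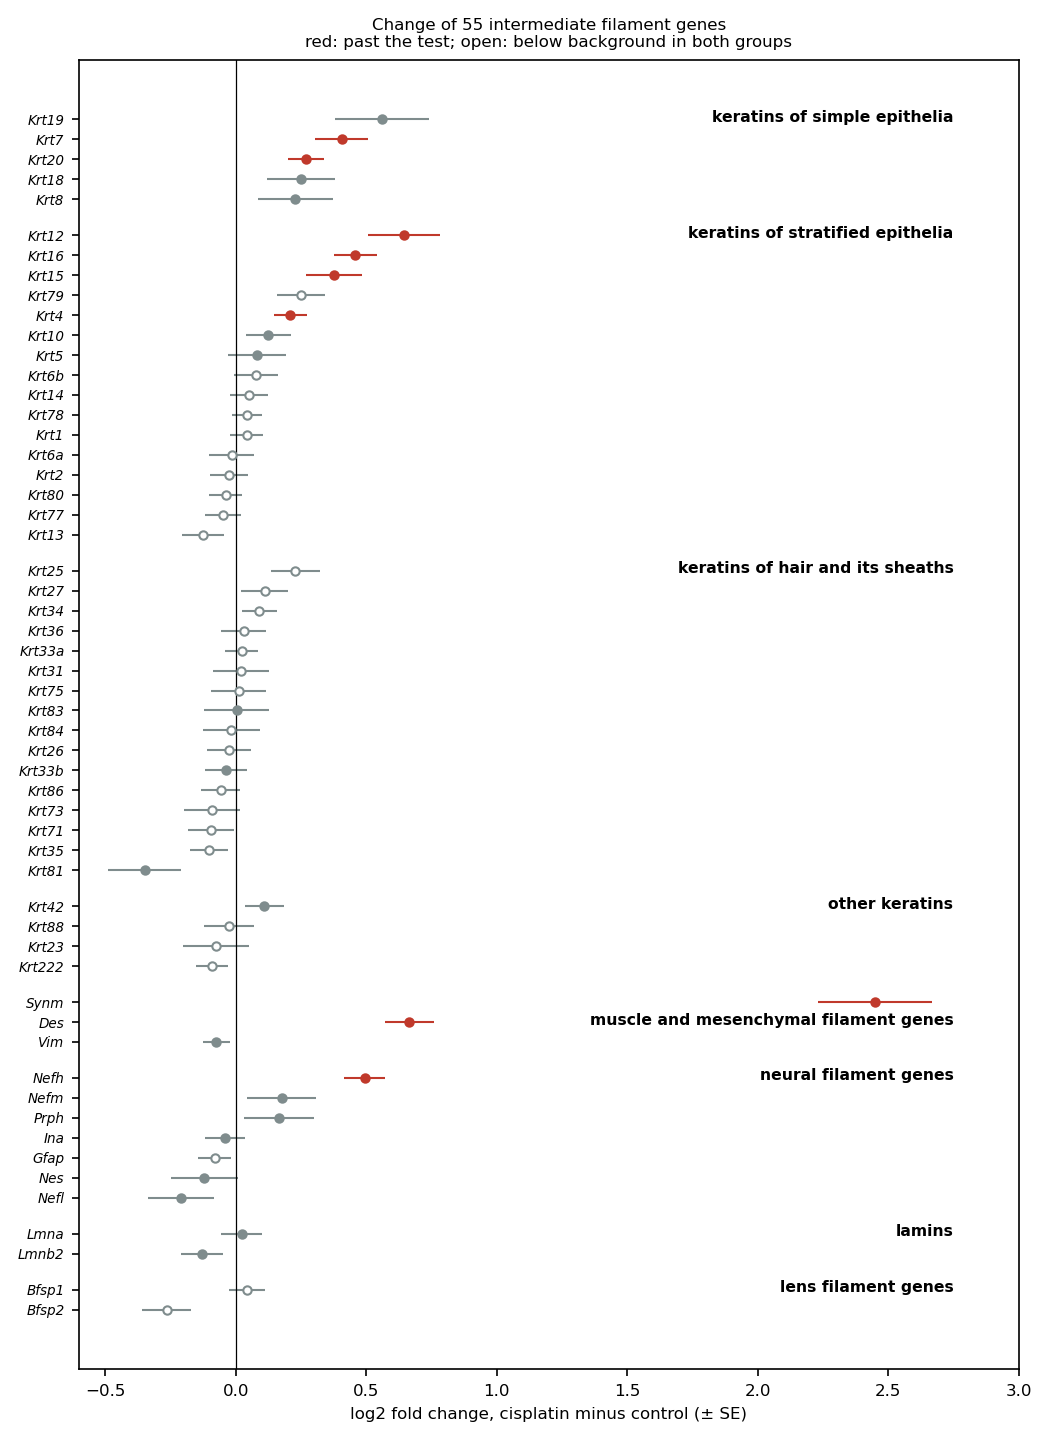
Log2 fold change (cisplatin minus control, horizontal axis) with its SE for each of the 55 intermediate filament genes, grouped by where they are expressed; red points passed limma's test and open points lay below background in both groups. The red points are all on the positive side, Synm stands at 2.45 and the other 54 genes lie between -0.35 and 0.66.

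Synm showed the largest change of the members. Its log2 level was 6.75, 6.84, 7.34 and 7.04 on cisplatin arrays 3 to 6 and 4.45, 4.64, 5.12 and 3.97 on control arrays 3 to 6. The groups did not overlap, and the lowest cisplatin array lay well above the highest control array. The difference was 2.45 ± 0.22, or 5.46-fold, from a control mean of 4.54, above the background of 3.10 but below that of 4.89. Among the controls Synm was more variable than most members, with an SD of 0.48 against 0.26 in the treated group, and control array 6 was the lowest.

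A second probe set of Synm was much dimmer. It read 3.56, 3.74, 3.69 and 3.73 with cisplatin and 3.00, 3.32, 3.22 and 3.23 in the controls, a difference of 0.49 ± 0.08. All cisplatin values again lay above all control values, but the control level of 3.19 was close to background. The direction of Synm thus did not depend on the probe set, whereas its size did. With the mean of both probe sets the change was 1.47.

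Des encodes desmin, with which synemin copolymerises in muscle. It was at 5.62, 5.91, 5.84 and 5.49 with cisplatin and at 5.14, 4.97, 5.10 and 4.99 in the controls. The treated arrays were all higher, by 0.66 ± 0.09 or 1.58-fold (adjusted p = 0.000895), and by 0.27 with the mean of both Des probe sets (adjusted p = 0.0188). A second Des probe set lay below background in both groups, at a mean of 2.61 ± 0.10 (SD, n = 4) against 2.73 ± 0.09, and carried no call (-0.12 ± 0.07, adjusted p = 0.318 over all probe sets).

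Vim encodes vimentin, the other partner of synemin, and was far above background. Its 4 cisplatin values ran from 10.72 to 10.83 and its control values from 10.81 to 10.91, so the groups overlapped slightly. The difference was -0.07 ± 0.05 (adjusted p = 0.387), and the other 2 Vim probe sets gave -0.10 ± 0.06 and -0.07 ± 0.06. Vim passed the test only after centring (-0.20, adjusted p = 0.0200), which lowers every change by 0.13. Vimentin is also abundant in feeder fibroblasts. Of 13 fibroblast markers measured 8 lay below background in both groups, among them Dcn, Lum, Postn and Col1a2. The others were Col5a1, Thy1, S100a4, Col3a1 and Col1a1, at 5.97, 4.62, 3.58, 3.55 and 3.46 in the controls. Only Thy1 passed, as higher with cisplatin (0.61 ± 0.15, adjusted p = 0.0176). That is 7.69% of the 13 called, against 19.3% of all genes. The mean level of the 13 markers ranged from 3.12 to 3.45 with cisplatin and from 3.14 to 3.35 in the controls. Their part in the filament results was not tested. In such bulk samples a change in the share of cells of a type and a change in RNA per cell cannot be told apart.

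**Figure D2:**
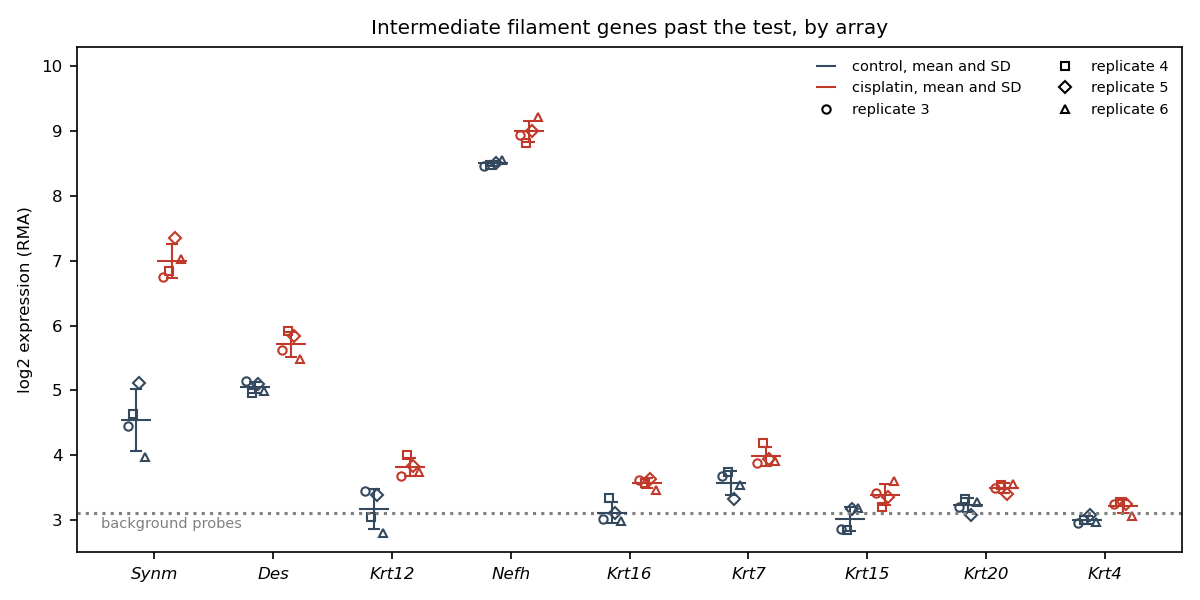
Log2 expression (vertical axis) of the 9 filament genes past limma's test on each of 4 control and 4 cisplatin arrays, with the mean and SD of each group; symbols give the replicate number and the dotted line is the background of 3.10. Synm, Des and Nefh lie above the dotted line in both groups, while the 6 keratins start near it in the controls.

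The 5 genes past the test that have an entry among the RefSeq promoters are shown with the 250 bases before their start, because they are the members whose transcript level differed between the groups; Krt4, Krt15, Krt16 and Nefh are named only. Synm and Des come first. Capitals mark the GC box GGGCGG on either strand, which binds SP1-type factors, or the TATA box TATAAA on either strand. No promoter printed holds both, and the p53 half-site, searched by its consensus on both strands, was not found in these 5 windows.
Synm promoter, GRCm38.p6 chr7:67759743-67759992, minus strand: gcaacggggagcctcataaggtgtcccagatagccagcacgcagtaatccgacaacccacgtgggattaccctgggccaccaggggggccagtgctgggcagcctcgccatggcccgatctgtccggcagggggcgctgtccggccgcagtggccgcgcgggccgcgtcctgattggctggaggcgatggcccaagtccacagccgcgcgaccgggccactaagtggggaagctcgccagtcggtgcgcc
Des promoter, GRCm38.p6 chr1:75360042-75360291, plus strand: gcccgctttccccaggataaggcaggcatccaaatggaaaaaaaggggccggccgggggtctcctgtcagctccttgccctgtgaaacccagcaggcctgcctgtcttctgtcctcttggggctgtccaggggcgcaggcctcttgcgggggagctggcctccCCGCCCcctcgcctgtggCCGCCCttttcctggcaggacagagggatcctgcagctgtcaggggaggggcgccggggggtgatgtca
Krt7 promoter, GRCm38.p6 chr15:101412153-101412402, plus strand: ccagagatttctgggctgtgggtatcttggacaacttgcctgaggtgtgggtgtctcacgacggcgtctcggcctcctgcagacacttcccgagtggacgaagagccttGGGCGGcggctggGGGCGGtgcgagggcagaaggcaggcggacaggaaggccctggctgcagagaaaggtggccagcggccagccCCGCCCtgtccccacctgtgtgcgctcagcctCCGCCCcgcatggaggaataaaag
Krt12 promoter, GRCm38.p6 chr11:99422260-99422509, minus strand: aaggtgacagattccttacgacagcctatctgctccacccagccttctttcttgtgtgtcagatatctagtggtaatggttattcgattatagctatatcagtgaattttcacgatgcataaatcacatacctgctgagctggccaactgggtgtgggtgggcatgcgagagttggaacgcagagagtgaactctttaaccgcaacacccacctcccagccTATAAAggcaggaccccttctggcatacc
Krt20 promoter, GRCm38.p6 chr11:99438154-99438403, minus strand: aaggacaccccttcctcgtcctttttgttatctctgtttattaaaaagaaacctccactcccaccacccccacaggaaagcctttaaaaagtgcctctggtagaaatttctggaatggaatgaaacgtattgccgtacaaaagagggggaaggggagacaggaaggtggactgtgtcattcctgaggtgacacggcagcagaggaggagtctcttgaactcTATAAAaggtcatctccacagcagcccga

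The promoters differ in kind. Those of Synm, Des and Krt7 hold 70.0%, 67.2% and 66.0% G or C, and Des and Krt7 carry 2 and 4 GC boxes, while Krt12 and Krt20 have 48.4% and 48.0% and a TATA box 29 bases before the start. Promoters were found for 37 members, with 40 windows in all. TATAAA was in 14 of the 40 windows (35.0%), against 12.4% of all 32851 windows of that length. GGGCGG was in 8 (20.0%, against 32.7%), and the p53 half-site in 2, those of Krt5 and of 1 start of Lmna (5.0%, against 7.13%). Neither Krt5 nor Lmna passed the test. These are matches of letters and say nothing of binding.

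Of the 5 keratins of simple epithelia, which line single-layered organs, 2 were higher and 3 did not pass. That is 40% called, against 19.3% of all genes, in a class of only 5. Krt7, a type II keratin of ducts and trophoblast, was at 3.87, 4.19, 3.94 and 3.92 with cisplatin and at 3.68, 3.74, 3.33 and 3.55 in the controls. No values overlapped, and the difference was 0.41 ± 0.10 (adjusted p = 0.0183). Krt20, the keratin of gut lining, was dimmer, with 3.40 to 3.56 on the cisplatin arrays and 3.08 to 3.33 on the controls (0.27 ± 0.07, adjusted p = 0.0199). Both lost their call after centring (adjusted p = 0.0600 and 0.176), and Krt20 also without cisplatin array 4 or 6 or control array 3 (adjusted p = 0.0532 to 0.0548). Krt7 also lost its call with the ordinary least squares statistic in place of limma's.

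Krt8, Krt18 and Krt19 were the simple keratins well above background. Krt8 read 8.60, 8.66, 8.44 and 8.21 with cisplatin and 8.42, 8.42, 8.34 and 7.82 in the controls (0.23 ± 0.14, adjusted p = 0.334). Its type I partner Krt18 read 8.96, 9.04, 8.81 and 8.66 against 8.75, 8.84, 8.64 and 8.24 (0.25 ± 0.13, adjusted p = 0.230). For both genes the groups overlapped, and array 6 was the lowest in each group. Krt19, a small type I keratin that can pair with Krt8, showed the same order at its low end: it was at 6.18, 6.22, 6.34 and 5.74 with cisplatin and at 5.78, 5.78, 5.66 and 5.03 in the controls. Its difference of 0.56 ± 0.18 did not pass (adjusted p = 0.0544). Cisplatin array 6 lay within the range of the controls, and without that array the difference was 0.69 (adjusted p = 0.0255). For Krt8, Krt18 and Krt19 each cisplatin array lay above the control array of its number. The differences were 0.10 to 0.39 for Krt8, 0.17 to 0.42 for Krt18 and 0.40 to 0.71 for Krt19. Same-numbered arrays were not treated as pairs in the main test. With the replicate number as a block all of these genes passed, as given below. In the reference gene order Krt8 and Krt18 are adjacent. The second Krt8 probe set gave 0.28 ± 0.17 and also had array 6 lowest in both groups, at 8.03 and 7.54.

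**Figure D3:**
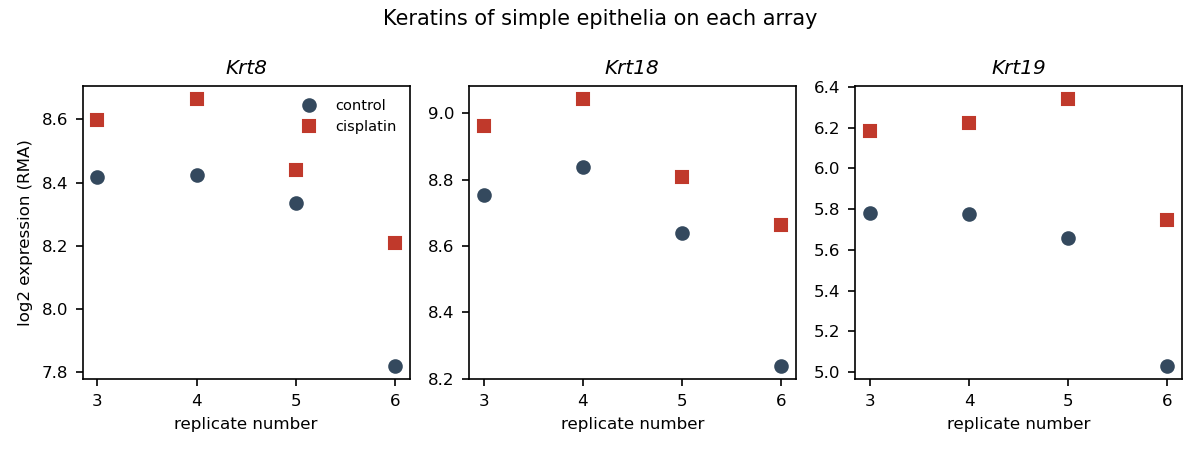
Log2 expression (vertical axes, not starting at 0) of Krt8, Krt18 and Krt19 on each array, by replicate number. Array 6 is the lowest of its group in every panel, at 7.82, 8.24 and 5.03 in the controls.

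Among 16 keratins of stratified epithelia, the multilayered linings such as epidermis, 4 were higher and 10 lay below background in both groups. That is 25% called, against 19.3% of all genes. Krt12, the cornea keratin, was at 3.68, 4.00, 3.83 and 3.74 with cisplatin and at 3.45, 3.05, 3.39 and 2.80 in the controls (0.64 ± 0.14, adjusted p = 0.00908). Krt16, which is induced in wounded epidermis, was at 3.61, 3.57, 3.64 and 3.46 against 3.01, 3.34, 3.11 and 2.99 (0.46 ± 0.08, adjusted p = 0.00359). In both genes all treated arrays lay above all controls, and 2 of the 4 control arrays were below background, so the control level is uncertain. With the mean of both Krt12 probe sets the change was 0.42 (adjusted p = 0.0180). The second Krt12 probe set did not pass (0.19 ± 0.14, adjusted p = 0.409 over all probe sets). Only its cisplatin arrays 4 and 5, at 3.35 and 3.73, were above all its controls. Krt12 also lost its call with the ordinary least squares statistic in place of limma's.

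Krt15, a keratin of basal cells, and Krt4, a keratin of mucosal linings, had control means of 3.01 and 3.00, below the background of 3.10. Their differences are therefore set against a level that was not measured above background. Krt15 was at 3.41, 3.20, 3.36 and 3.60 with cisplatin and at 2.86, 2.85, 3.17 and 3.18 in the controls (0.38 ± 0.11, adjusted p = 0.0333). Krt4 was at 3.24, 3.28, 3.25 and 3.06 against 2.95, 3.00, 3.08 and 2.97 (0.21 ± 0.06, adjusted p = 0.0459), and its groups overlapped at cisplatin array 6. The call of Krt15 was lost without cisplatin array 3, 5 or 6 or control array 3 or 4 (adjusted p = 0.0654 to 0.0918). That of Krt4 was lost without any array but cisplatin 6 and control 5 (adjusted p = 0.0901 to 0.117). The other Krt4 probe set gave -0.11 ± 0.08, so the direction of Krt4 is not settled. Of the pairs known from skin, the chains Krt5 and Krt14 of the basal layer were at 3.34 and 2.64 in the controls and changed by 0.08 ± 0.11 and 0.05 ± 0.07, and neither passed. Krt1, Krt2 and Krt10 of the upper layers gave 0.04, -0.02 and 0.13.

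**Figure D4:**
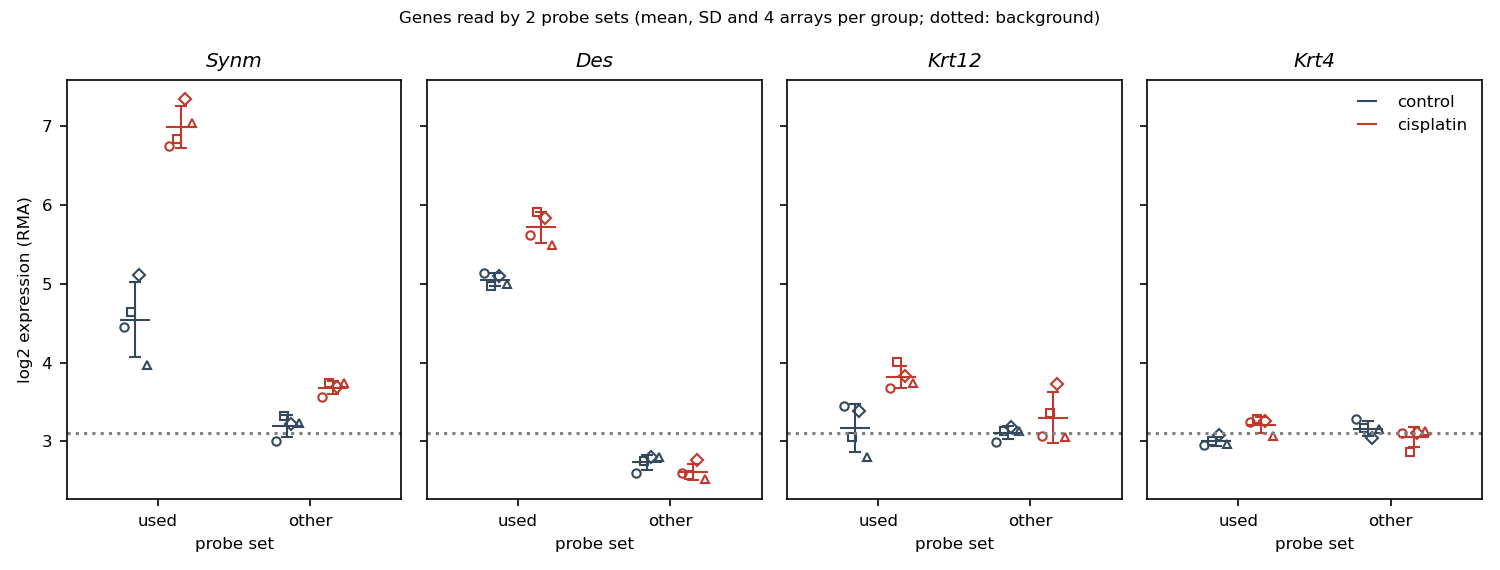
Log2 expression (vertical axis) of 4 genes past the test by their probe set with the highest mean ("used") and by their other probe set, with the mean and SD of 4 control and 4 cisplatin arrays; the dotted line is background. Both Synm probe sets are higher with cisplatin, by 2.45 and 0.49, while the other probe sets of Des, Krt12 and Krt4 lie near or below the dotted line.

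Markers of the surface epithelium, listed with earlier results known, were read beside these keratins. Of 10 genes measured 5 passed the test (50%, against 19.3% of all genes). The 4 higher ones were Zfp750 at 2.01 ± 0.14, Sfn at 0.69 ± 0.18, Grhl3 at 0.60 ± 0.06 and Cldn4 at 0.47 ± 0.14, and 1, Grhl2, was lower at -0.37 ± 0.11 (adjusted p from 2.39e-05 for Zfp750 to 0.0450 for Grhl2). Their mean level was 5.04 to 5.16 on the cisplatin arrays and 4.59 to 4.82 on the controls, lowest on control array 6. Trp63, Ovol1, Ivl and Lor of the same list lay below background in both groups. Of the trophoblast markers, Ascl2 alone among 9 passed, at 0.52 ± 0.13 (adjusted p = 0.0183). That is 11.1% called, against 19.3% of all genes. Elf5, Gata3, Tpbpa and Prl2c2 lay below background. The mean level of the 9 ranged from 3.73 to 3.84 with cisplatin and from 3.72 to 3.87 in the controls. The part of either marker set in the keratin values was not tested.

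None of the 16 keratins of hair and its sheaths passed the test, against 19.3% of all genes. Of the 16, 13 lay below background in both groups, and changes ran from -0.35 to 0.23. Krt81, a hair cortex keratin, was above background, at 4.69, 4.32, 4.46 and 4.10 with cisplatin and at 4.70, 4.69, 4.51 and 5.06 in the controls. These values overlapped, and its change of -0.35 ± 0.14 did not pass (adjusted p = 0.115), although it did without cisplatin array 3 (-0.45, adjusted p = 0.0427). Of 4 further keratins, Krt42 was well above background, at 7.01 ± 0.08 (SD, n = 4) after cisplatin against 6.90 ± 0.13, and did not pass (adjusted p = 0.374). Keratins lie in a type I and a type II gene cluster. Of the 20 measured on the chromosome of the type I cluster 4 were higher. Of the 21 on that of the type II cluster, which also holds Krt18, 2 were higher, against 11.6% of all genes.

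The neural filament genes included several with high levels, and 1 of 7 passed (14.3%, against 19.3% of all genes). Nefh, the heavy neurofilament chain, was at 8.94, 8.82, 9.00 and 9.21 with cisplatin and at 8.47, 8.47, 8.51 and 8.55 in the controls. The controls lay within 0.1 of each other, and every treated array was higher, giving 0.49 ± 0.08 or 1.41-fold (adjusted p = 0.00190). Neither of its partner chains passed. Nefl, the light chain, was at 8.78, 8.35, 8.71 and 8.58 against 8.90, 8.78, 9.07 and 8.51 (-0.21 ± 0.13, adjusted p = 0.309), and Nefm, the medium chain, was low at 3.70 ± 0.22 and 3.52 ± 0.24 (SD, n = 4; 0.18 ± 0.13, adjusted p = 0.428). Whether Nefh differed from Nefl in its response was not tested.

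Ina, which encodes α-internexin, ran from 8.16 to 8.41 with cisplatin and from 8.21 to 8.45 in the controls (-0.04 ± 0.08, adjusted p = 0.791), and its other probe sets gave -0.20 ± 0.08 and -0.07 ± 0.08. Prph, the peripheral neuron chain, was at 5.48 ± 0.19 and 5.31 ± 0.27. The progenitor filament gene Nes was near background, at 3.05 ± 0.28 and 3.17 ± 0.12, and the astrocyte gene Gfap was below it by all 3 of its probe sets. Of 7 neural progenitor markers 5 lay below background, Sox1 among them. Only Pax6 of the 7 passed (14.3%, against 19.3% of all genes), lower with cisplatin at -0.77 ± 0.16 (adjusted p = 0.00701). The mean level of the 7 markers ranged from 3.96 to 4.06 with cisplatin and from 4.08 to 4.20 in the controls. Their part in the values of Nefh was not tested.

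Neither lamin measured passed the test. Lmna, the A-type lamin, was at 5.77 ± 0.13 (SD, n = 4) after cisplatin against 5.75 ± 0.11 (0.02 ± 0.08, adjusted p = 0.890), and its other 3 probe sets gave 0.09 to 0.14. Lmnb2, a B-type lamin, was at 6.77 ± 0.06 and 6.90 ± 0.16 (-0.13 ± 0.08, adjusted p = 0.334). The lens genes Bfsp1 and Bfsp2 were below background in both groups. The Bfsp2 values of 2.49 to 2.73 with cisplatin all lay under the 2.74 to 3.10 of the controls, yet the change did not pass (-0.27 ± 0.09, adjusted p = 0.0742).

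Proteins that tie filaments to each other and to junctions were represented by lists written with earlier results of these arrays known. Among 11 cytolinker genes, 6 were higher and 2 lower, with a median of 0.24. That is 72.7% called, against 19.3% of all genes. Fam83h, which encodes an organiser of keratin filaments, rose from 4.05 ± 0.24 (SD, n = 4) to 5.38 ± 0.20 (1.33 ± 0.13, adjusted p = 0.000118). With the mean of its probe sets Fam83h was at 0.996 (adjusted p = 4.35e-05). Eppk1, the keratin-binding epiplakin, read 6.99, 6.93, 6.96 and 6.71 with cisplatin and 5.81, 5.96, 5.68 and 5.30 in the controls (1.21 ± 0.13, adjusted p = 0.000186). Evpl, which encodes envoplakin, rose by 0.73 ± 0.13, the keratin-binding Tchp by 0.59 ± 0.11, the plectin gene Plec by 0.36 ± 0.10 and the ubiquitin ligase gene Trim32 by 0.24 ± 0.07. The giant plakin genes Dst and Macf1 fell, by 0.47 ± 0.08 and 0.40 ± 0.06 on the log2 scale (adjusted p = 0.00201 and 0.00139). With the mean of its probe sets Dst was at -0.26 (adjusted p = 0.0168). In each of these 8 genes the groups did not overlap, which was so for 24.3% of all genes. The 8 were picked because they passed the test on the same values, so this separation is no further support.

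**Figure D5:**
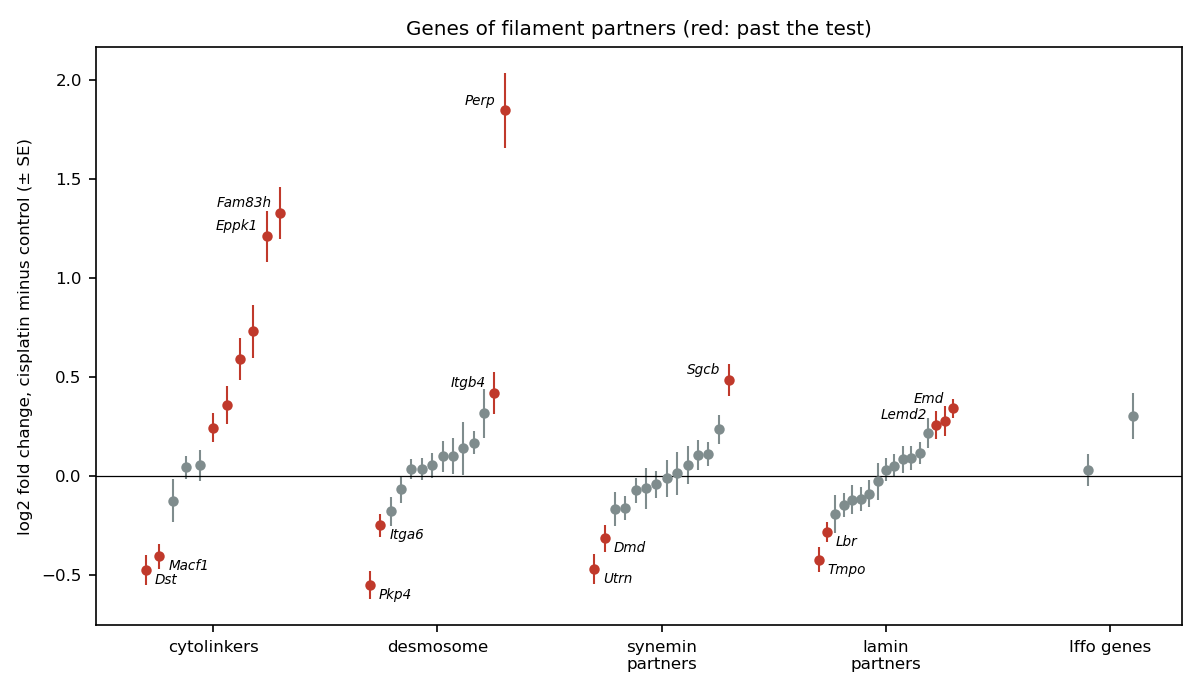
Log2 fold change (cisplatin minus control, vertical axis) with its SE of each gene in 5 lists of filament partners, sorted within a list; red points passed limma's test. Names are given for called genes among the 4 of smallest p in a list. Perp, Fam83h and Eppk1 lie above 1, and Pkp4, Dst and Utrn are the lowest points of their lists.

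Desmosomes anchor keratins at cell borders, and hemidesmosomes anchor them to the matrix. Of 14 genes measured, 2 were higher and 2 lower (28.6% called, against 19.3% of all genes). Perp, a desmosomal membrane protein and known p53 target, read 8.67, 8.99, 9.21 and 8.72 with cisplatin and 7.06, 7.29, 7.35 and 6.49 in the controls (1.85 ± 0.19, adjusted p = 0.000140). Control array 6 was again the lowest. The hemidesmosome integrin gene Itgb4 was at 3.51 ± 0.24 (SD, n = 4) with cisplatin and at 3.09 ± 0.05 in the controls, a level not above background (0.42 ± 0.10, adjusted p = 0.0186, or 0.0511 without control array 5). Its partner Itga6 fell by 0.25 ± 0.06 on the log2 scale from 9.31 ± 0.07. Pkp4, a plakophilin of cell junctions, fell by 0.55 ± 0.07 (adjusted p = 0.000517).

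Of 14 measured partners of synemin, 1 was higher and 2 were lower (21.4% called, near the 19.3% of all genes). The sarcoglycan gene Sgcb rose by 0.49 ± 0.08 (adjusted p = 0.00255). The dystrophin gene Dmd and its relative Utrn fell by 0.31 ± 0.07 and 0.47 ± 0.07 on the log2 scale (adjusted p = 0.00866 and 0.00179), although the call of Dmd was lost with the mean of its probe sets (-0.19, adjusted p = 0.0584). The syntrophin gene Sntb2 was at 0.24 ± 0.08 (adjusted p = 0.0536, or 0.0343 without control array 4). Of 17 lamin partners 3 were higher and 2 lower (29.4% called, against 19.3% of all genes). The emerin gene Emd and the lamin-processing protease gene Zmpste24 rose by 0.34 ± 0.05 and 0.28 ± 0.08, and Lemd2 by 0.26 ± 0.07. With arrays centred Emd was at 0.21 (adjusted p = 0.0152) and Lemd2 at 0.13 (adjusted p = 0.197). Tmpo, which encodes the lamina-associated LAP2 proteins, fell by 0.42 ± 0.06 and the lamin B receptor gene Lbr by 0.28 ± 0.05. The call of Lemd2 was lost without cisplatin array 4 or 5 or control array 3, 4 or 5 (adjusted p = 0.0517 to 0.0809). The filament-like genes Iffo1 and Iffo2 did not pass, at 0.30 ± 0.12 and 0.03 ± 0.08, but Iffo1 passed by its most variable probe set (0.55, adjusted p = 0.0101), by the mean of its probe sets (0.43, adjusted p = 0.0137) and without cisplatin array 3 (adjusted p = 0.0220). Over all 5 lists 12 of 58 genes were higher and 8 lower (34.5% called, against 19.3% of all genes). Centring, which lowers every change by 0.13, turned this balance to 8 higher and 17 lower. Quantile normalization again gave 11 higher and 8 lower. Since the lists were written with these results known, their share is no evidence of its own.

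The genes nearest to Synm in the reference gene order were read for comparison, 3 tested genes on each side. The adjacent Igf1r, the receptor of insulin-like growth factor 1, fell by 0.83 ± 0.12 (adjusted p = 0.000998), and on the other side Ttc23 was at 0.19 ± 0.08 (adjusted p = 0.147). Lrrc28 next to it rose by 0.63 ± 0.11 (adjusted p = 0.00253), Fam169b fell by 0.36 ± 0.11, and Mef2a and Pgpep1l did not pass.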

How the data were processed

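The 8 samples were grouped by the treatment in their titles. The authors deposited log2 expression values per probe set, made with RMA per the submitters' processing notes (background correction, normalization between arrays, probe summary); limma is named there too. Their versions: not given in the sources used here. RNA was labelled with a 3′ amplification kit, per the labels' protocols. Of 45141 probe sets, 28898 with 1 annotated gene were kept; symbols were updated by Entrez identifier through RefSeq (GRCm38.p6). No filter on dim genes was applied.

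Treated arrays were set against controls with limma 3.58.1 in R 4.3.3 (group as the only term, two-sided). The script was tested on simulated data. Members and lists were chosen with earlier results of these data known. Named were all called members, members at a level of 8 or more, the probe sets of Synm, and the 4 genes of smallest p in each partner list; other members and partners named, single marker genes and the neighbours of Synm were chosen after values were seen. Same-numbered arrays were not treated as pairs: deviations from the group means correlated at 0.20, 0.18, 0.20 and 0.06 for numbers 3 to 6. The number of arrays limits the precision. Alternatives covered probe set choice, dim genes, normalization, centring, moderation, a replicate block, the symbols used and leaving out each array.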

Additional observations from a re-analysis of the deposited data

Results flagged for a closer look

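In 5 of 86 groups of 4 arrays, over the 43 genes checked, 1 array stood apart from the other 3 by most of the group's range; chance alone flags about 1 group in 20. Control array 6 was such an array for 2 genes: Krt8 was at 7.82 on control array 6, with the other controls at 8.34 to 8.42, and Krt19 at 5.03, with the others at 5.66 to 5.78. Macf1 was at 8.43 on cisplatin array 6, with the others at 8.36 to 8.37. Below background, Krt35 was at 2.43 on cisplatin array 6, with the others at 2.63 to 2.64, and Gfap at 2.67 on cisplatin array 3, with the others at 2.80 to 2.81.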

How the results depend on the processing

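Apart from Synm, which was chosen for its change, Des, Nefh and Krt16 passed in every alternative that kept them; Krt16 was left out without genes under a mean level of 4. Leaving out that class of dim genes left 4 members higher (Synm, Des, Nefh and Krt19). Centring gave 5 members higher and 7 lower, 1087 of all genes higher and 3925 lower, and 8 partner genes higher and 17 lower. The ordinary least squares statistic gave 5 members and 7 partner genes higher. Krt4, Krt7, Krt12 and Krt15 lost their calls there. With single arrays left out, 6 to 9 members were higher and 0 to 1 lower, and 7 to 11 partner genes were higher, the fewest without control replicate 5. Without control replicate 3, 6 members were higher; the only lower one was Krt81, without cisplatin replicate 3, when Krt79 also passed as higher (adjusted p = 0.0445). Krt4 turned to -0.11 without probe sets that can match several transcripts. Iffo2 turned to -0.30 there and by its most variable probe set (adjusted p = 0.0312 and 0.0374). The cause of these changes was not tested. With the replicate number as a block, 12 members were called, the 9 and also Krt8, Krt18 and Krt19 (adjusted p = 0.0474, 0.0336 and 0.00388). Every cisplatin array deviated most like the control array of its number (r = 0.20, 0.18, 0.20 and 0.06 for numbers 3 to 6). Control arrays 3 to 5 did likewise, while control array 6 deviated most like cisplatin array 3 (r = 0.11). Pairing is therefore only a hint. Over single genes, 688 values kept their side of the threshold, 28 gained and 41 lost a call. The sign changed 10 times, 3 times with a call on either side. Near 3.10 a fall cannot be seen well, which limits the 29 dim members.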

Other observations

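Among 11 markers of primitive endoderm, an early embryonic epithelium that also carries Krt8 and Krt18, Sparc rose by 0.25 ± 0.05 (adjusted p = 0.00630) and Lama1, which encodes a laminin chain, fell by 0.52 ± 0.10 on the log2 scale (adjusted p = 0.00514). Only these passed, or 18.2% of the 11, against 19.3% of all genes. Gata4, Sox17, Sox7, Foxa2, Pdgfra and Ttr lay below background in both groups. The mean level of the 11 genes was 3.90 to 4.02 on the cisplatin arrays and 3.94 to 4.09 on the controls.

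The annotation gives 3 further probe sets to both Nefm and another transcript, and they were left out of the gene tests. Their means were 2.95, 2.83 and 2.63 with cisplatin and 3.19, 2.87 and 2.80 in the controls, near or below background.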
